A study of Stenocereus queretaroensis with 6 samples.

Results

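The phenylpropanoid entry and monolignol enzymes are the transcript clusters whose best Swiss-Prot protein hit is described as phenylalanine ammonia-lyase, a cinnamate 4-hydroxylase, a 4-coumarate--CoA ligase, shikimate O-hydroxycinnamoyltransferase, a cytochrome P450 of the 98A or 84A group, caffeoylshikimate esterase, caffeoyl-CoA O-methyltransferase, cinnamoyl-CoA reductase, cinnamyl alcohol dehydrogenase or a dirigent protein. The rule that chose them uses that description alone and no measured value, though earlier results of these data were known. They number 229 of 170970 assembled clusters. The 229 clusters fall on 46 Swiss-Prot proteins. A cluster is a group of assembled sequences that stands for a gene or for a part of one.

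Phenylpropanoid metabolism starts when phenylalanine ammonia-lyase (PAL) removes the amino group of phenylalanine, and cinnamate 4-hydroxylase (C4H) and 4-coumarate--CoA ligase (4CL) then make p-coumaroyl-CoA, the precursor that the flavonoid and the monolignol branches share. In the monolignol branch, HCT, the P450 of the 98A group (C3H) and caffeoylshikimate esterase (CSE) lead to caffeoyl compounds, which caffeoyl-CoA O-methyltransferase (CCoAOMT) and the P450 of the 84A group (F5H, ferulate 5-hydroxylase) decorate, and cinnamoyl-CoA reductase (CCR) and cinnamyl alcohol dehydrogenase (CAD) reduce the side chain to the alcohol. Monolignols are coupled to lignin in the wall by laccases and peroxidases, or to lignans, where dirigent proteins steer the coupling.

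The material was suspension cells, grown in liquid culture, of the columnar cactus *Stenocereus queretaroensis*. One group of 3 libraries came from cells on MS medium (mineral salts used in plant tissue culture) with 8% sucrose, and the other group of 3 libraries from cells on the same medium with 3% sucrose. The titles carry the letter R at 8% sucrose and Y at 3% sucrose, which the labels do not explain, and neither a time on the medium nor separate cultures are given, so the p-values rest on the spread between these libraries alone, and that spread may be technical. In bulk RNA of this kind, fewer cells of a type and less RNA per cell cannot be told apart.

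The libraries held 35475940 to 41146944 counts. Members took 0.388% to 0.420% of the counts in the 8% sucrose libraries and 0.196% to 0.198% in the 3% sucrose libraries. A count of 0 allows up to 0.0776 to 0.0883 CPM (counts put on a common scale of depth) in a library, for counting error only. Lists of marker genes differed between the media. The 83 clusters of dividing-cell genes (cyclins, replication factors) summed to 526 to 554 CPM at 8% sucrose and 965 to 1056 CPM at 3% sucrose, and 36 of 62 tested fell while 5 rose. Clusters of green-cell genes (light-harvesting proteins, photosystem subunits, Rubisco small chain) summed to 459 to 549 CPM at 8% sucrose and 1484 to 1524 CPM at 3% sucrose, and 39 of 72 tested fell while 11 rose. The part of cell make-up in the results below was not tested.

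Of the 229 members 160 had enough counts to be tested with edgeR's quasi-likelihood test over all clusters (adjusted p under 0.05), and 69 did not. Among the 160, 73 rose at 8% sucrose relative to 3% sucrose, 38 fell and 49 did not pass. Over all 85038 tested clusters 29.1% rose and 25.6% fell. Fold changes on the log2 scale had a median of 0.54 over the tested members, against 0.19 over all tested clusters. A tested member can have passed the count filter only through the medium in which it is high, and 11 of them had no count in any 3% sucrose library, while 0 of them had none in the 8% sucrose libraries. The summed level of all members was 3646 to 4014 CPM in the 8% sucrose libraries and 2046 to 2129 CPM in the 3% sucrose libraries, a ratio of 1.85, and the groups do not overlap. That total hides opposite movements by enzyme, described below in the order of the pathway. The summed levels of an enzyme are given by library and have no test.

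**Figure D1:**
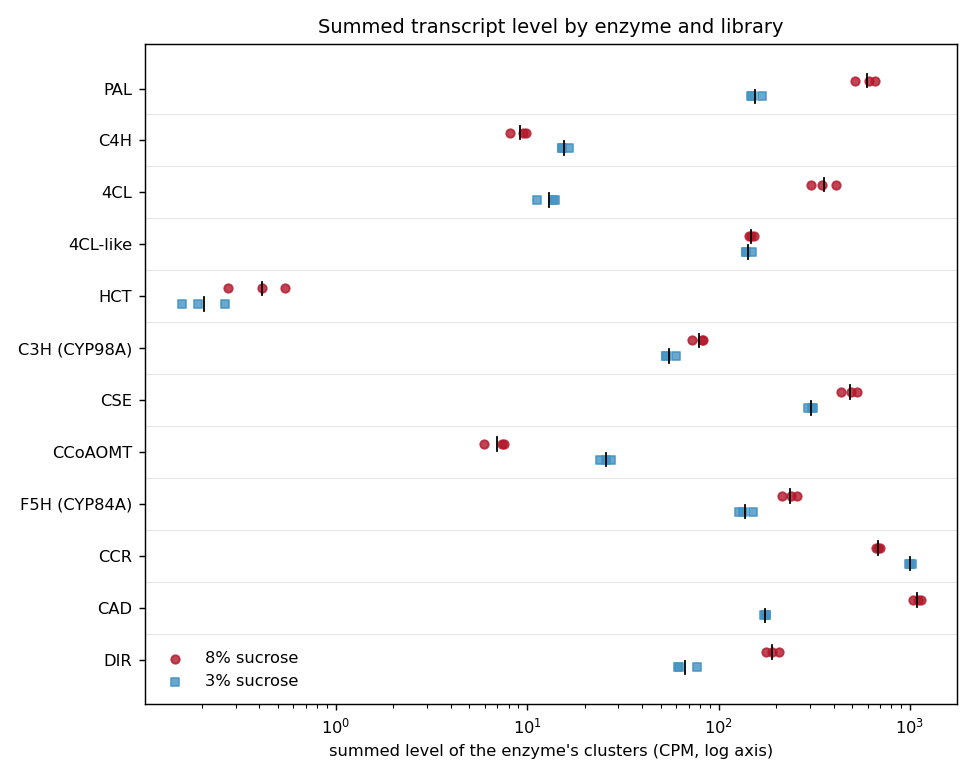
Summed level of all clusters of each enzyme (CPM on a log axis) in each library, with 8% sucrose as red circles above 3% sucrose as blue squares, and a black bar at the mean of each group of 3. 4CL stands farthest apart, at 304 to 410 CPM at 8% sucrose against 11.2 to 14.0 CPM at 3% sucrose, C4H, CCoAOMT and CCR lie lower at 8% sucrose, and the 4CL-like groups overlap.

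PAL, the entry enzyme, was carried by a single cluster. Its summed level was 655, 613 and 517 CPM at 8% sucrose, against 150, 168 and 147 CPM at 3% sucrose. Every 8% sucrose library lay above every 3% sucrose library. Cluster-2051.75724, named by a PAL of *Populus trichocarpa* and with a coding stretch over 85.1% of its length, made up 98.5% of the PAL level at 8% sucrose and 97.3% at 3% sucrose. It rose by a log2 fold change of 1.96 ± 0.10 (SE, edgeR adjusted p = 1.25e-05), with 586 ± 70.8 CPM at 8% sucrose and 151 ± 11.2 CPM at 3% sucrose (SD, n = 3 each). The other 6 PAL clusters, all named by a tobacco PAL and between 3882 and 5500 bp long, held 9.11 ± 0.32 CPM at 8% sucrose and 4.14 ± 1.00 CPM at 3% sucrose together, a rise of 1.14 ± 0.17 when summed as a hit (edgeR adjusted p = 0.000231 over all hits). Among the 6 PAL clusters tested, 3 rose and none of the others passed the test.

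C4H, the P450 that hydroxylates cinnamate, went the other way in sum and exchanged one cluster for another. Its 8 clusters summed to 8.15, 9.81 and 9.52 CPM at 8% sucrose, against 15.2, 15.2 and 16.5 CPM at 3% sucrose. The groups do not overlap, and the ratio was 0.587. Cluster-2051.12343 held 1.92, 1.67 and 1.55 CPM at 8% sucrose and 10.5, 9.14 and 10.1 CPM at 3% sucrose, and fell by 2.53 ± 0.16 on the log2 scale (edgeR adjusted p = 2.67e-05). Cluster-2051.13333 held 4.22 to 5.17 CPM at 8% sucrose and between 0 and 0.0883 CPM at 3% sucrose, and rose by 6.35 ± 0.64 (edgeR adjusted p = 0.000249), or by 5.72 without 3% sucrose library 2. A further pair of clusters, named by the C4H of Jerusalem artichoke, held 0.941 ± 0.260 CPM at 8% sucrose and 5.64 ± 0.90 CPM at 3% sucrose together and fell by 2.58 ± 0.25 on the log2 scale (edgeR adjusted p = 1.22e-05 over all hits). Cluster-2051.12343 and Cluster-2051.13333 are named by the same *Populus kitakamiensis* enzyme, one with a *Beta vulgaris* protein as best NR hit and the other with an *Ipomoea purpurea* protein. Cluster-2051.12343 thus held 18.7% of the C4H level at 8% sucrose and 63.5% at 3% sucrose. C4H had 3 rising and 3 falling clusters among 6 tested, with a median log2 fold change of 1.91. Since 2 of the 3 that rose had no count at 3% sucrose, the median with those at their lower bound was -0.04.

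4CL, which activates p-coumarate with coenzyme A, had the largest ratio of summed levels among the 12 groups of clusters described here. Its 13 clusters summed to 410, 348 and 304 CPM at 8% sucrose, against 11.2, 13.7 and 14.0 CPM at 3% sucrose, a ratio of 27.3. Cluster-2051.73438, a 4CL 2 by its soybean hit with a coding stretch over 79.9% of its length, held 325, 280 and 243 CPM at 8% sucrose and 5.35, 6.64 and 6.55 CPM at 3% sucrose. It carried 80.0% of the 4CL level at 8% sucrose and 47.7% at 3% sucrose, and rose by 5.51 ± 0.15 (edgeR adjusted p = 1.15e-06). Cluster-2051.73440, with the same hit, held 4.27 to 7.95 CPM at 8% sucrose and no count at 3% sucrose, at least 79.2-fold higher when 3 counts in each library are taken as the floor. All 9 clusters with the soybean hit summed to 353 ± 53.3 CPM at 8% sucrose and 9.51 ± 1.12 CPM at 3% sucrose. One 4CL fell, Cluster-24787.0, named by a *Vanilla planifolia* enzyme and covered by its coding stretch over 95.6% of its length. It held 0.544, 0.383 and 0.414 CPM at 8% sucrose and 2.35, 2.59 and 3.54 CPM at 3% sucrose, a fall of 2.65 ± 0.32 on the log2 scale (edgeR adjusted p = 0.000622). Thus 6 of the 9 tested 4CL clusters rose and 1 fell.

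The 16 clusters of 4CL-like proteins, relatives of 4CL of which several act on other carboxylic acids, did not share this pattern in sum. They summed to 147, 154 and 144 CPM at 8% sucrose and 139, 149 and 140 CPM at 3% sucrose, and the groups overlap. The most abundant of them, Cluster-2051.112444 (4CL-like 5 of *Arabidopsis*), held 63.8 ± 2.87 CPM at 8% sucrose and 65.3 ± 3.08 CPM at 3% sucrose, with a log2 fold change of -0.03 ± 0.06 (edgeR adjusted p = 0.684). The 3 clusters of 4CL-like 6 summed to 13.3 ± 1.10 CPM at 8% sucrose and 8.10 ± 0.13 CPM at 3% sucrose, a rise of 0.71 ± 0.09 (edgeR adjusted p = 0.000104 over all hits). Minor clusters of the other names moved too, so that 9 of 14 tested rose and 2 fell. Cluster-2051.124087 (4CL-like 7) rose by 3.19 ± 0.49 (edgeR adjusted p = 0.00179), with 1.80 ± 0.68 CPM at 8% sucrose and 0.195 ± 0.056 CPM at 3% sucrose. Cluster-2051.134246 (4CL-like 9), at 0 to 0.0518 CPM at 8% sucrose and 0.382 to 0.905 CPM at 3% sucrose, fell by 4.88 ± 1.00 on the log2 scale (edgeR adjusted p = 0.00608). All its counts at 8% sucrose lie in library 1, and without that library the fitted log2 fold change was -7.50 (edgeR adjusted p = 0.00787), a value that depends on the prior count.

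**Figure D2:**
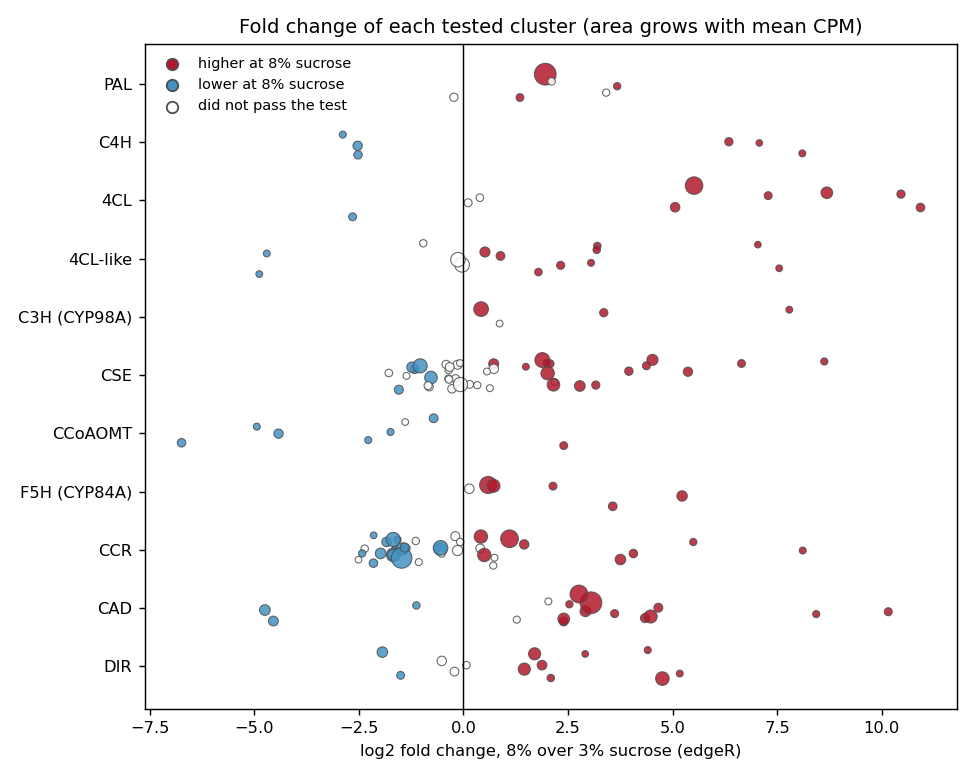
Log2 fold change of 8% over 3% sucrose from edgeR for each of the 160 tested clusters, by enzyme (DIR, dirigent proteins), with red for clusters that rose, blue for those that fell and open circles for those that did not pass, and the area growing with mean CPM. Large symbols of PAL, 4CL and CAD lie right of 0 while the largest of CCR lies left of it at -1.48, and values beyond about 7 belong mostly to clusters without a count at 3% sucrose, whose fitted fold change depends on the prior count.

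HCT, the acyltransferase that moves p-coumarate onto shikimate, was near the limit of detection in the clusters with that Swiss-Prot name. Cluster-2051.43112, outside the description rule, has an HCT as NR hit and omega-hydroxypalmitate O-feruloyl transferase as Swiss-Prot hit. That cluster held 5.64, 4.67 and 4.81 CPM at 8% sucrose and 0.0883, 0.0261 and 0.0823 CPM at 3% sucrose. It rose by 6.21 ± 0.40 on the log2 scale (edgeR adjusted p = 3.14e-05). The 3 HCT clusters of the rule, named by an *Arabidopsis* or a tobacco HCT, summed to 0.273 to 0.544 CPM at 8% sucrose and 0.157 to 0.265 CPM at 3% sucrose, and 0 of them had enough counts to be tested. The next enzyme, C3H, was represented by Cluster-2051.90092, a CYP98A2 by its soybean hit with 92.9% of the C3H level at 8% sucrose and 98.8% at 3% sucrose. It held 77.0, 75.6 and 67.1 CPM at 8% sucrose, against 52.4, 59.8 and 51.9 CPM at 3% sucrose. The groups are apart by a small margin, and the rise of 0.42 ± 0.09 on the log2 scale (edgeR adjusted p = 0.00569) was lost without 3% sucrose library 1 (edgeR adjusted p = 0.0542) and without 3% sucrose library 3 (edgeR adjusted p = 0.0560). Cluster-2051.90093, with the same hit, held 0.574 to 0.880 CPM at 8% sucrose and no count at 3% sucrose, at least 8.96-fold higher. Among the 4 C3H clusters tested, 3 rose and 0 fell.

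CSE, an esterase that releases caffeate from caffeoylshikimate, had the most clusters, 52, all named by 1 *Arabidopsis* protein. They summed to 530, 492 and 435 CPM at 8% sucrose, against 313, 307 and 292 CPM at 3% sucrose, with no overlap and a ratio of 1.60. Many of them were undecided, since 21 of 41 did not pass, against 15 higher and 5 lower, with a median log2 fold change of 0.15. Cluster-2051.74360 held 112, 112 and 106 CPM at 8% sucrose and 29.5, 29.9 and 29.8 CPM at 3% sucrose, and rose by 1.89 ± 0.05 (edgeR adjusted p = 1.23e-06). Cluster-2051.84174 held 31.8, 38.1 and 35.6 CPM at 8% sucrose and 71.5, 75.1 and 69.6 CPM at 3% sucrose, and fell by 1.04 ± 0.08 on the log2 scale (edgeR adjusted p = 7.62e-05). Their NR hits are both caffeoylshikimate esterases of *Beta vulgaris*, so the same enzyme name covers clusters that moved in opposite directions. By NR description 47 of the 52 are caffeoylshikimate esterases and 3 are monoglyceride lipases. The 3 lipase-named clusters all rose, at 116 ± 16.9 CPM at 8% sucrose and 27.8 ± 1.40 CPM at 3% sucrose. The 47 summed to 366 ± 30.4 CPM at 8% sucrose and 276 ± 9.12 CPM at 3% sucrose.

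CCoAOMT, which methylates caffeoyl-CoA, was lower at 8% sucrose. Its 15 clusters summed to 5.98, 7.57 and 7.40 CPM at 8% sucrose, against 27.5, 25.9 and 24.1 CPM at 3% sucrose, a ratio of 0.270 with no overlap. Cluster-2051.35966, named by the enzyme of the ice plant *Mesembryanthemum crystallinum*, held 0.647, 0.437 and 0.362 CPM at 8% sucrose and 10.6, 10.2 and 10.4 CPM at 3% sucrose. It fell by 4.42 ± 0.24 on the log2 scale (edgeR adjusted p = 1.5e-05). The 6 clusters named by the enzyme of the chickweed relative *Stellaria longipes* held 3.32 ± 0.69 CPM at 8% sucrose and 13.1 ± 1.42 CPM at 3% sucrose together, a fall of 1.98 ± 0.17 on the log2 scale (edgeR adjusted p = 4.27e-06 over all hits). The test called 6 of 8 clusters lower and 1 higher, with a median log2 fold change of -2.01. The one that rose, Cluster-2051.118094, held 2.77 ± 0.27 CPM at 8% sucrose and 0.524 ± 0.337 CPM at 3% sucrose, a rise of 2.40 ± 0.58 (edgeR adjusted p = 0.012), and its Swiss-Prot hit is an enzyme of the amoeba *Dictyostelium discoideum*.

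F5H, which opens the way to syringyl units, rose in 5 of 6 tested clusters and fell in 0. Its 7 clusters, all named by CYP84A1 of *Arabidopsis*, summed to 257, 240 and 215 CPM at 8% sucrose, against 128, 151 and 134 CPM at 3% sucrose. Cluster-2051.78197, the most abundant, held 177, 162 and 133 CPM at 8% sucrose and 97.4, 116 and 100 CPM at 3% sucrose, with no overlap, and rose by 0.59 ± 0.12 (edgeR adjusted p = 0.0058). Cluster-2051.82133 rose far more, by 5.23 ± 0.20 (edgeR adjusted p = 3.34e-06), with 21.8 ± 3.20 CPM at 8% sucrose and 0.578 ± 0.107 CPM at 3% sucrose, and it is 4969 bp long with a coding stretch over 19.7% of that length.

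**Figure D3:**
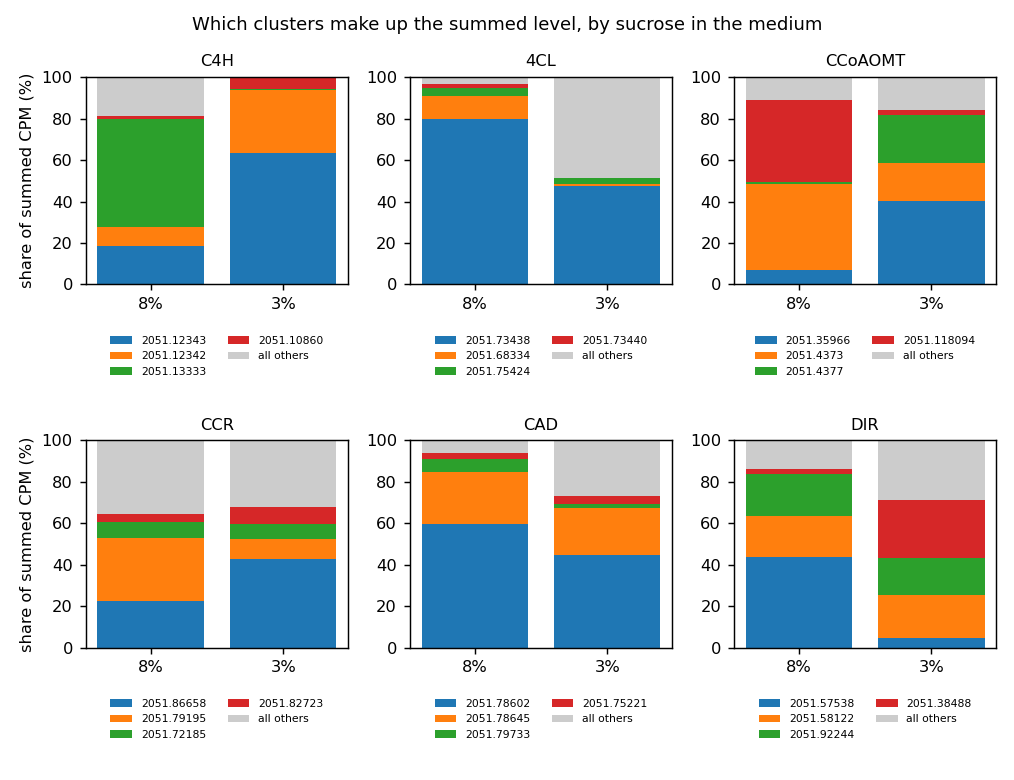
Share of the summed CPM of an enzyme (%, 0 to 100) taken by its 4 most abundant clusters and by all others, in means of 3 libraries, with 8% sucrose left of 3% sucrose. DIR stands for dirigent proteins. In C4H, Cluster-2051.12343 takes 18.7% at 8% sucrose and 63.5% at 3% sucrose, while CAD has the same 2 leading clusters in both media.

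CCR, the first reductase of the side chain, was lower in sum at 8% sucrose. Its 49 clusters summed to 677, 694 and 661 CPM at 8% sucrose, against 1027, 1002 and 989 CPM at 3% sucrose, a ratio of 0.673 with no overlap. Cluster-2051.86658, named by CCR 1 of *Arabidopsis*, held 145, 160 and 158 CPM at 8% sucrose and 447, 434 and 411 CPM at 3% sucrose. It fell by 1.48 ± 0.06 on the log2 scale (edgeR adjusted p = 3.88e-06) and made up 22.8% of the CCR level at 8% sucrose and 42.8% at 3% sucrose. The test called 16 of 36 CCR clusters lower and 8 higher, with a median log2 fold change of -1.11.

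Summed over its 29 clusters, CCR 1 of *Arabidopsis* held 436 ± 16.2 CPM at 8% sucrose and 798 ± 20.1 CPM at 3% sucrose and fell by 0.87 ± 0.05 on the log2 scale (edgeR adjusted p = 2.55e-07 over all hits). CCR 2, which *Arabidopsis* uses in defence, held 2.74 ± 0.43 CPM at 8% sucrose and 9.13 ± 0.85 CPM at 3% sucrose in 8 clusters and fell by 1.73 ± 0.15 (edgeR adjusted p = 6.47e-06 over all hits). Within CCR 1 the clusters went both ways, with 6 that rose and 9 that fell.

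The CCR name covers several reductases, and they did not move together. By NR description 29 of the 49 are cinnamoyl-CoA reductases and 10 are tetraketide alpha-pyrone reductases, which in *Arabidopsis* serve the pollen wall. The 29 summed to 373 ± 15.6 CPM at 8% sucrose and 754 ± 16.8 CPM at 3% sucrose, and 10 of 21 tested fell while 3 rose. The 10 summed to 239 ± 20.5 CPM at 8% sucrose and 114 ± 2.66 CPM at 3% sucrose, and 4 of 7 tested rose while 2 fell. Among the tetraketide reductases, Cluster-2051.79195 held 227, 208 and 182 CPM at 8% sucrose and 97.3, 99.7 and 90.7 CPM at 3% sucrose, a rise of 1.10 ± 0.09 (edgeR adjusted p = 9.29e-05). Cluster-2051.42205 held 20.4, 20.9 and 24.3 CPM at 8% sucrose and 1.44, 1.62 and 1.78 CPM at 3% sucrose, a rise of 3.75 ± 0.14 (edgeR adjusted p = 3.07e-06). The KEGG orthology number of CCR is carried by 4 of the 49 clusters in the deposited annotation. Those 4 summed to 50.7 ± 1.69 CPM at 8% sucrose and 82.4 ± 2.34 CPM at 3% sucrose, with 1 that rose and 2 that fell among 4 tested.

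CAD, which makes the alcohol, was higher in sum at 8% sucrose, but its direction, too, depended on which clusters were counted. Its 35 clusters summed to 1035, 1135 and 1104 CPM at 8% sucrose, against 177, 176 and 174 CPM at 3% sucrose, a ratio of 6.21. Cluster-2051.78602 and Cluster-2051.78645 led in both media. Cluster-2051.78602 held 644, 683 and 632 CPM at 8% sucrose and 78.6, 78.0 and 80.0 CPM at 3% sucrose, a rise of 3.05 ± 0.05 (edgeR adjusted p = 3.8e-07). Cluster-2051.78645 held 224, 279 and 309 CPM at 8% sucrose and 40.2, 41.8 and 37.7 CPM at 3% sucrose, a rise of 2.76 ± 0.13 (edgeR adjusted p = 6.67e-06). Both are named by probable CAD 1 of *Arabidopsis*, and 8 of the 9 clusters with that hit rose. The 9 summed to 1072 ± 50.4 CPM at 8% sucrose and 133 ± 1.09 CPM at 3% sucrose, a rise of 3.02 ± 0.05 (edgeR adjusted p = 6.28e-10 over all hits). In Cluster-2051.78602 and Cluster-2051.78645 the coding stretches cover 42.7% of 2855 bp and 17.9% of 3944 bp.

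The 16 CAD clusters with a coding stretch over at least 50% of their length, which hold the minor part of the CAD level in both media, went the other way in sum. They summed to 4.76, 4.87 and 5.25 CPM at 8% sucrose, against 41.2, 40.5 and 39.0 CPM at 3% sucrose, a ratio of 0.123. In means that was 4.96 of 1091 CPM of CAD at 8% sucrose and 40.2 of 176 CPM at 3% sucrose. Most of their level at 3% sucrose lay in Cluster-2051.122629 and Cluster-2051.122628, and whether these are parts of 1 gene was not tested. Of the 3 among these 16 clusters with enough counts, 2 fell and 0 rose. Cluster-2051.122629, named by CAD 1 of basil with a coding stretch over 66.5% of its length, held 1.14, 0.847 and 0.724 CPM at 8% sucrose and 24.6, 24.7 and 23.9 CPM at 3% sucrose, a fall of 4.75 ± 0.18 on the log2 scale (edgeR adjusted p = 3.13e-06). Cluster-2051.122628, named by a *Eucalyptus* CAD with a coding stretch over 72.2% of its 626 bp, was also lower, with 0.644 ± 0.222 CPM at 8% sucrose and 15.1 ± 0.57 CPM at 3% sucrose (fall of 4.55 ± 0.27 on the log2 scale, edgeR adjusted p = 2.01e-05). Over all CAD clusters, 12 of the 17 tested rose and 3 fell. This limit of 50% was set after the values were seen, and no other enzyme changed direction under it. A share of cluster length does not tell whether a coding stretch is complete. On summed FPKM (a level per cluster length and depth), which count a long cluster for less, CAD was 420 ± 11.3 at 8% sucrose and 122 ± 1.25 at 3% sucrose, a ratio of 3.43.

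**Figure D4:**
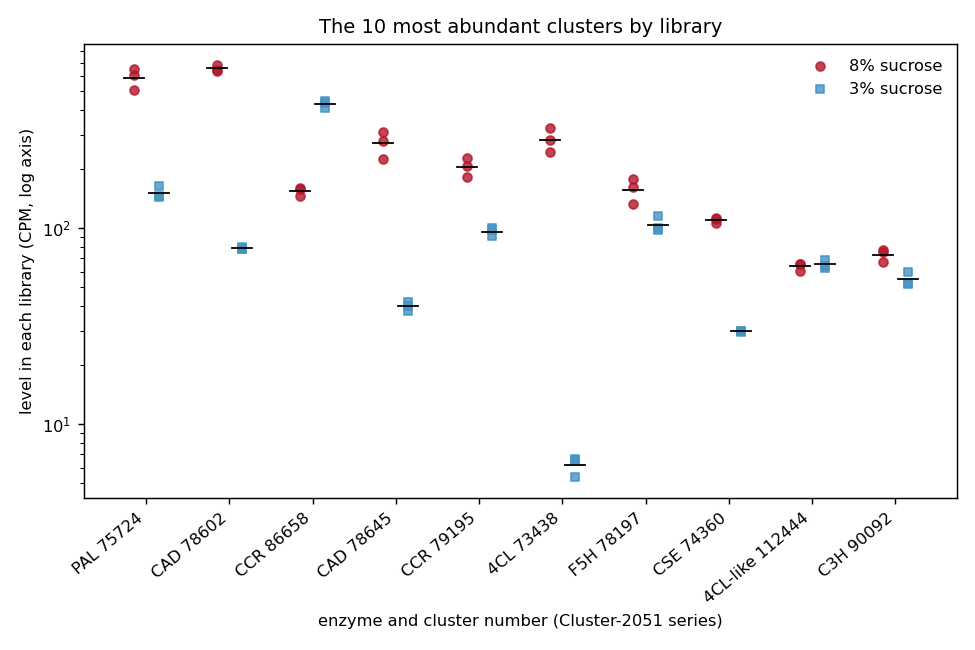
Level (CPM, log axis) in each library of the 10 clusters with the highest mean level, with 8% sucrose as red circles left of 3% sucrose as blue squares, and a bar at the mean of each group of 3. CCR Cluster-2051.86658 lies lower, at 154 ± 7.96 CPM at 8% sucrose and 431 ± 18.0 CPM at 3% sucrose. The groups of 4CL-like Cluster-2051.112444 overlap, and the other clusters lie higher at 8% sucrose. Over all 85038 tested clusters 29.1% rose and 25.6% fell.

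Dirigent proteins are best known for guiding the coupling of monolignol radicals, a role not shown for the clusters here. Their 20 clusters summed to 207, 191 and 176 CPM at 8% sucrose, against 77.0, 61.1 and 61.8 CPM at 3% sucrose, a ratio of 2.87 with no overlap. Cluster-2051.57538, named by dirigent protein 23, held 91.1, 80.3 and 81.1 CPM at 8% sucrose and 5.97, 1.36 and 2.08 CPM at 3% sucrose, a rise of 4.76 ± 0.52 (edgeR adjusted p = 0.000353), or of 5.57 without 3% sucrose library 1. It made up 44.0% of the dirigent level at 8% sucrose and 4.71% at 3% sucrose. Cluster-2051.38488, named by dirigent protein 17, held 4.37, 6.07 and 4.19 CPM at 8% sucrose and 19.7, 18.3 and 18.2 CPM at 3% sucrose, a fall of 1.94 ± 0.16 on the log2 scale (edgeR adjusted p = 0.00011). Dirigent protein 4, with 6 clusters, held 52.5 ± 8.70 CPM at 8% sucrose and 15.5 ± 1.49 CPM at 3% sucrose together and rose by 1.76 ± 0.13 (edgeR adjusted p = 1.4e-06 over all hits). Dirigent protein 21 held 4.97 ± 1.33 CPM at 8% sucrose and 7.13 ± 2.33 CPM at 3% sucrose, which overlap, with a log2 fold change of -0.52 ± 0.27 (edgeR adjusted p = 0.104 over all hits), and it passed as lower with DESeq2 (adjusted p = 0.0416), with a replicate block (edgeR adjusted p = 0.0469) and without 3% sucrose library 2 (edgeR adjusted p = 0.0341). The name is not borne out for all members. Cluster-2051.58122, which rose by 1.46 ± 0.07 (edgeR adjusted p = 7.17e-06) with 37.8 ± 1.30 CPM at 8% sucrose and 13.8 ± 0.29 CPM at 3% sucrose, has dirigent protein 16 as Swiss-Prot hit and a hydroxyethylthiazole kinase, an enzyme of thiamine salvage, as NR hit. Among the 13 dirigent clusters tested, 8 rose and 2 fell.

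Clusters can be parts or copies of 1 gene, so the counts were also summed over all clusters of a protein hit and tested over all 13186 hits. Of the 46 hits of the members 35 could be tested, of which 18 rose and 14 fell. For comparison, 29.9% of all tested hits rose and 50.2% fell, and medians of the log2 fold change were 0.29 over the member hits and -0.32 over all hits. The split over all hits depends on the scaling. With scaling factors computed from the hit table itself, 5270 hits rose and 5236 fell with a median of 0.03, and of the member hits 20 rose and 13 fell. In 7 of the 46 hits clusters were called in both directions. The *Populus kitakamiensis* C4H was one of these, and its sum was 7.88 ± 0.43 CPM at 8% sucrose and 9.97 ± 0.74 CPM at 3% sucrose, a fall of 0.34 ± 0.10 on the log2 scale (edgeR adjusted p = 0.0141) that did not pass with library totals (edgeR adjusted p = 0.135) or with the hit table's own factors (edgeR adjusted p = 0.917). The hits of 4CL-like 5 and 4CL-like 7 did not pass, and both passed as higher with the hit table's own factors (edgeR adjusted p = 7.59e-05 and 0.000677), 4CL-like 5 also with library totals (edgeR adjusted p = 0.00457). The CCR-like SNL6 hit of rice rose by 0.29 ± 0.07 (edgeR adjusted p = 0.00345), with 237 ± 20.1 CPM at 8% sucrose and 195 ± 2.04 CPM at 3% sucrose, and did not pass without 3% sucrose library 3 (edgeR adjusted p = 0.0533).

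The members differ in how well other deposited annotation carries their name. All 229 have an NR hit, 143 of them to *Beta vulgaris*. All clusters of PAL, C4H, 4CL, HCT, C3H, F5H and CAD carry the KEGG orthology number of their enzyme, as do 14 of 15 for CCoAOMT, 10 of 16 for 4CL-like proteins and 4 of 49 for CCR. The number of CSE is carried by 0 of its 52 clusters. It is carried by 0 clusters outside the description rule too, so it cannot grade the CSE name. None was looked up for dirigent proteins. Among the 67 tested clusters that carry the number of their enzyme, 40 rose and 15 fell. Of the 160 tested members, 37 have a coding stretch under 25% of their length, of which 20 rose and 6 fell, and 38 have one of at least 75%, of which 14 rose and 13 fell. All tested clusters with a Swiss-Prot hit show a like gradient, with 31.7% rising and 15.6% falling under 25% and 21.0% rising and 41.3% falling at 75% or more. Over clusters with a coding stretch of at least 50% the ratio of the summed levels was 0.165 for CCoAOMT, 0.435 for CCR and 5.43 for dirigent proteins.

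Around these enzymes, the list of phenylalanine supply was higher in sum, at 660 to 791 CPM at 8% sucrose and 444 to 468 CPM at 3% sucrose, with 16 of 39 tested clusters rising and 8 falling. That sum rests on chorismate mutase 2, which makes prephenate from chorismate in the cytosol, at 556 ± 42.7 CPM at 8% sucrose and 188 ± 7.39 CPM at 3% sucrose in 14 clusters. The plastid chorismate mutase 1 held 20.9 ± 1.62 CPM at 8% sucrose and 44.4 ± 2.32 CPM at 3% sucrose. Arogenate dehydratase/prephenate dehydratase 2, of a family in the last steps to phenylalanine, held 25.5 ± 1.41 CPM at 8% sucrose and 47.8 ± 2.61 CPM at 3% sucrose. Others of that family differed less or overlapped. Number 1 held 26.4 ± 1.13 CPM at 8% sucrose and 29.2 ± 0.86 CPM at 3% sucrose. Number 3 held 11.3 ± 0.79 and 12.6 ± 0.84 CPM in that order, and number 6 held 31.5 ± 17.6 and 17.9 ± 1.13 CPM, and both overlap. The flavonoid ring enzymes, whose branch starts from the same p-coumaroyl-CoA, summed to 5421 to 5593 CPM at 8% sucrose and 853 to 876 CPM at 3% sucrose, and 21 of 27 tested clusters rose while 5 fell. Most of that sum at 8% sucrose is 1 flavanone 3-dioxygenase, Cluster-2051.78504, at 3200 ± 64.0 CPM at 8% sucrose and 411 ± 3.66 CPM at 3% sucrose. Both branches therefore hold clusters that rose, and no test of a difference between them was run.

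F-box proteins of the kind that mark PAL for breakdown in *Arabidopsis* fell in both of the 2 clusters tested. Cluster-2051.50372, named by At1g80440, held 31.3 to 36.3 CPM at 8% sucrose and 79.4 to 85.6 CPM at 3% sucrose, a fall of 1.27 ± 0.07 on the log2 scale (edgeR adjusted p = 2.03e-05). The MYB and NAC regulators of lignin summed to 86.5 to 90.8 CPM at 8% sucrose and 83.5 to 88.7 CPM at 3% sucrose, which overlap, with 4 of 25 tested rising and 8 falling. Within that list the clusters named MYB46, a secondary-wall switch in *Arabidopsis*, summed to 76.7 ± 2.55 CPM at 8% sucrose and 58.4 ± 3.18 CPM at 3% sucrose. Most of that is Cluster-2051.76122, at 51.3 ± 2.12 CPM at 8% sucrose and 48.5 ± 2.96 CPM at 3% sucrose, which did not pass (edgeR adjusted p = 0.359). Cluster-2051.55675, at 6.71 ± 0.84 CPM at 8% sucrose and 0.832 ± 0.317 CPM at 3% sucrose, rose (edgeR adjusted p = 0.000287). The NR hit of both is a MYB86-like factor. The clusters named NAC domain-containing protein 7 and 30, which turn on vessel formation in *Arabidopsis*, summed to 0.194 ± 0.079 and 0.159 ± 0.052 CPM at 8% sucrose, against 4.46 ± 0.08 and 2.19 ± 0.33 CPM at 3% sucrose.

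Downstream, the laccases that oxidise monolignols fell in 5 and rose in 2 of 14 tested clusters. Laccase-12, Cluster-2051.69397, held 82.7, 68.5 and 56.2 CPM at 8% sucrose and 117, 122 and 120 CPM at 3% sucrose, a fall of 0.79 ± 0.13 on the log2 scale (edgeR adjusted p = 0.00253), while laccase-5, Cluster-2051.69398, held 34.4 ± 4.70 CPM at 8% sucrose and 9.68 ± 4.12 CPM at 3% sucrose and rose by 1.83 ± 0.30 (edgeR adjusted p = 0.00215). Both of these laccase clusters have the same *Beta vulgaris* protein as NR hit, so they may be parts or near-identical copies of 1 gene, which was not tested. Lignan enzymes and related reductases summed to 354 to 369 CPM at 8% sucrose and 456 to 472 CPM at 3% sucrose, with 5 of 24 tested clusters rising and 10 falling. Enzymes of hydroxycinnamate amides and esters summed to 36.5 to 41.6 CPM at 8% sucrose and 33.2 to 34.5 CPM at 3% sucrose, with 6 of 10 rising and 2 falling. Nearly all of that is omega-hydroxypalmitate O-feruloyl transferase, at 38.7 ± 2.49 CPM at 8% sucrose and 33.8 ± 0.69 CPM at 3% sucrose in 15 clusters. Its most abundant cluster, Cluster-2051.33967, fell, at 5.70 ± 1.02 CPM at 8% sucrose and 20.1 ± 0.96 CPM at 3% sucrose (edgeR adjusted p = 0.000103). Markers of tracheary elements, the lignified water-conducting cells, summed to 9.83 ± 1.20 CPM at 8% sucrose and 15.5 ± 0.86 CPM at 3% sucrose, with 7 of 13 tested falling and 2 rising. Most of that level at 8% sucrose is COBRA-like protein 4, which acts in cellulose deposition in secondary walls of *Arabidopsis* and went the other way in sum, at 7.45 ± 0.64 CPM at 8% sucrose and 5.26 ± 0.92 CPM at 3% sucrose, with no overlap. Of the cellulose synthases of the secondary wall, subunit 7 held 1.54 ± 0.39 CPM at 8% sucrose and 2.99 ± 0.15 CPM at 3% sucrose, and subunit 8 and laccase-17 were at or near 0 in both media. Markers of suberised periderm summed to 58.4 to 68.5 CPM at 8% sucrose and 59.0 to 65.3 CPM at 3% sucrose, which overlap, with 11 of 21 tested rising and 6 falling. The 15 feruloyl transferase clusters above count among these markers too. The part of these cell types in the members' values was not tested.

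The authors' deposited table gives its own log2 ratio and q-value. At q under 0.05 the authors' deposited table has 72 members higher and 42 lower at 8% sucrose. Among members called with edgeR here, the authors' deposited table leaves 10 uncalled, calls 0 with the opposite sign and calls the others with the same sign.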

How the data were processed

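Poly(A) RNA from 6 libraries was sequenced as read pairs with the NEBNext Ultra kit, per the labels' protocols, which does not mark strand, so antisense partners cannot be told apart. The tools named are RSEM, Bowtie2, FastQC and Trimmomatic 0.36, per the submitters' processing notes. The assembler, annotation databases and the authors' test are not named in the sources used here. The authors deposited, per cluster and library, an expected count (45.4% of values are not whole) and FPKM, per the file headers. Per the file headers, the authors also deposited a log2 ratio of 8% over 3% sucrose with its p-value and q-value, and, as other columns, cluster length, protein hits with E-values and the predicted coding stretch. The coding share is the first listed stretch over cluster length. No cluster has a sequence or genome position here.

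Expected counts were rounded to whole numbers. filterByExpr kept 85038 clusters with 99.3% of the counts, TMM factors scaled them, and edgeR 4.0.16 (R 4.3.3) tested 8% over 3% sucrose with no covariate, with Benjamini-Hochberg adjustment over all tested clusters. The biological coefficient of variation was 41.4%. CPM use TMM-scaled library sizes, and means carry the SD over 3 libraries. The SE is the log2 fold change over the square root of the F statistic. Hits were tested with the clusters' library sizes. Reads of 1 gene or of near-identical copies can be divided between clusters with the same hit, so a single cluster is uncertain there. On simulated data with the same 85038 clusters, 62 of 100 clusters changed 2-fold and 100 of 100 changed 4-fold were recovered, with 7 false calls. The simulation used a smaller spread between libraries than the 41.4% found here and changed no cluster of the lowest levels. Its figures therefore do not give the recovery or the false calls for the data.

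Named clusters are, per enzyme, the most abundant tested cluster and the one that rose and the one that fell with the smallest adjusted p, and the 10 most abundant members. Some, not all, of the hits of at least 5 CPM are also named. The same holds for the clusters with the smallest adjusted p in the surrounding lists. A list of monolignol glucosylation and release is not described above. Its 3 clusters summed to 1.36 ± 0.13 CPM at 8% sucrose and 0.130 ± 0.076 CPM at 3% sucrose, and the 1 tested rose. Other clusters, sums and annotation groups were picked after their values were seen. The description rule finds 268 clusters, of which 229 are described, and those of 1 further enzyme are not reported here. The members and lists were chosen with earlier results of these data known. Alternatives used DESeq2 1.42.0, limma 3.58.1 on log2(FPKM + 0.1) and log2(FPKM + 1), other scalings and filters, a replicate block and each library left out.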

Additional observations from a re-analysis of the deposited data

How the results depend on the processing

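The counts of clusters and hits called kept within 1.5 times under all alternatives run. Members that rose numbered 60 to 78 and those that fell 32 to 44, against 73 and 38. Of 375 values of the 25 named clusters under alternatives, 373 kept their side of the threshold. The other 2, both of Cluster-2051.90092 (C3H), kept their direction and lost the call. Cluster-2051.112444, at -0.03 in the main fit, did not pass under any alternative but changed sign under some. It was at 0.124 with library totals and 0.0096 without 8% sucrose library 3. With limma it was at 0.119 on log2(FPKM + 0.1) and 0.116 on log2(FPKM + 1). All other named clusters kept their direction. Library totals move the median of all clusters to 0.35, against 0.19 with TMM factors, 0.14 with RLE and 0.14 with upper-quartile factors.

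Summed levels have no test, and their alternatives were chosen after seeing the data. Over clusters with a coding share of at least 50% the log2 ratio of CAD turned to -3.02, against 2.63 over all its clusters, and those of CSE, CCoAOMT, CCR and dirigent proteins were 0.34, -2.60, -1.20 and 2.44. With library totals 4CL-like, C3H, CSE, CCR and CAD were at 0.21, 0.67, 0.83, -0.41 and 2.79. CCR was at -0.63 with RLE and -0.62 with upper-quartile factors. On summed FPKM 4CL-like, C3H, F5H and CAD were at 0.20, 0.70, 0.59 and 1.78. Leaving out each library in turn gave -0.0324 to 0.0823 for 4CL-like, whose near-0 ratio changed sign without 3% sucrose library 1 or 3 (factors re-estimated) and with RLE factors, -0.66 to -0.55 for CCR and 2.55 to 2.68 for CAD. The cause of these shifts was not tested beyond the clusters or units each alternative counts.

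The replicate number was also fitted as a replicate block. Same-numbered libraries did not deviate together (correlations of 0.031, 0.004 and 0.013), so the libraries are taken to share only a number. With the block 38625 clusters were called against 46458, 63 members rose and 32 fell, and 17 member hits rose and 15 fell. The HCT clusters of the description rule had too few counts to be tested at this depth.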

Other observations

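CAD shares its KEGG orthology number with 12 clusters outside the description rule, most of them named mannitol dehydrogenase, which belongs to the same family of alcohol dehydrogenases. They summed to 170 to 186 CPM at 8% sucrose, against 102.8 to 103.8 CPM at 3% sucrose, and 4 of 10 tested rose while 5 fell. Cluster-2051.71569 held 127 ± 5.48 CPM at 8% sucrose and 39.3 ± 1.36 CPM at 3% sucrose and rose by 1.69 ± 0.06 on the log2 scale (edgeR adjusted p = 2.59e-06). Cluster-2051.61177 held 38.2 ± 2.18 CPM at 8% sucrose and 44.1 ± 1.44 CPM at 3% sucrose and fell by 0.21 ± 0.07 (edgeR adjusted p = 0.0359). The HCT number is carried by 5 clusters outside the rule, which summed to 0.414 to 0.629 CPM at 8% sucrose and 0.353 to 3.37 CPM at 3% sucrose and overlap.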
